A study of Mus musculus with 6 samples.

Results

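The Rab small GTPases are described here in mouse oocytes depleted of *Btg4* and in control oocytes, at the level of polyadenylated RNA. Members were every gene whose symbol is Rab followed by a number, with or without a letter and a digit after it, which gave 54 of the 15707 genes in the deposited table. Of these 54 genes, 37 had a mean over both groups of at least 1 FPKM (fragments scaled to transcript length and sequencing depth) and are called measured, as are 10012 genes in all. The other 17 members lay under that level and are given at the end.

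Rab proteins are switches that sit on the membrane of a particular organelle in their GTP-bound form and there recruit effectors, such as tethers, motor proteins and lipid phosphatases. Guanine nucleotide exchange factors (GEFs) load them with GTP, GTPase-activating proteins (GAPs) return them to the GDP-bound form, and GDP dissociation inhibitors (GDIs) take that form off the membrane. A geranylgeranyl transferase, with a Rab escort protein (REP), adds the lipid that anchors them. In mouse oocytes *Rab11a*-positive vesicles are known for their part in the actin-dependent movement of the spindle, and *Rab3a* and *Rab27a* for their part in the traffic of cortical granules, the secretory granules released at fertilization.

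The study compared 3 samples of *Btg4*-depleted oocytes with 3 samples of control oocytes at metaphase II, with 50 pooled oocytes in each sample. *Btg4*-depleted oocytes were injected with siRNAs against *Btg4*, whose product belongs to a protein family that binds CAF1 deadenylases, and control oocytes were injected with control siRNA. All oocytes came from follicles of (C57BL x CBA) F1 females aged 10 to 12 days, pooled from several ovaries, and the follicles of both groups were grown in culture for 8 to 10 days before the oocytes matured. The question that the comparison addresses is which transcripts differ in the polyadenylated RNA when *Btg4* is depleted.

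Only the authors' mean FPKM of each group was used, since the table gives no single library, so no value below carries a replicate error and no difference was tested. Ratios are log2 ratios of FPKM + 1, *Btg4*-depleted over control, after a trimmed-mean (TMM) scaling of the group means to each other, and a fold is that ratio on the linear scale. A gene is counted as higher or lower where this fold is at least 2. The cDNA was primed on poly(A) tails, so a difference in the number of transcripts and a difference in the length of their tails cannot be told apart here. *Btg4* itself (gene 56057) was at 39.3 FPKM in *Btg4*-depleted oocytes and 1766 FPKM in control oocytes, a log2 ratio of -5.29. All 12 oocyte markers were listed, with a summed level of 19546 FPKM in *Btg4*-depleted and 21531 FPKM in control oocytes, and 10 of 14 markers of granulosa and cumulus cells summed to 35.9 FPKM in *Btg4*-depleted and 36.4 FPKM in control oocytes. Within these sums single markers differed in both directions. In *Btg4*-depleted and control oocytes, *Zp3* was at 3766 and 1398 FPKM and *H1foo* at 4003 and 6594 FPKM. Of the granulosa markers, *Inhba* was at 9.24 and 4.28 FPKM and *Cyp19a1* at 5.87 and 14.8 FPKM. Of the theca and stroma markers 2 of 6 were listed (sums of 0.020 FPKM in *Btg4*-depleted and 0.24 FPKM in control oocytes), and of blood and endothelium 2 of 5 (8.13 FPKM in *Btg4*-depleted and 26.5 FPKM in control oocytes, nearly all *Pecam1*). The depth was estimated at 7.82 M fragments per library, so a gene of 2 kilobases at 1 FPKM rests on roughly 15.6 fragments.

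As a family, the Rab genes lay at similar relative levels in both groups, while single members differed in both directions. Their summed level was 1269.5 FPKM in *Btg4*-depleted oocytes and 1412 FPKM in control oocytes, or 0.297% of all FPKM in *Btg4*-depleted and 0.345% in control oocytes. The median log2 ratio of the 37 measured members was 0.01, beside -0.02 for all measured genes, with quartiles of -0.56 and 0.63 against -0.66 and 0.77. Of the 37 members 5 had a mean at least 2-fold higher after depletion (13.5%, beside 19.5% of all measured genes) and 5 were at least 2-fold lower (13.5%, beside 11.4%). Only 5 genes stand behind each share of the members, and their differences from the shares of all genes were not tested. The 5 higher members were *Rab1b*, *Rab22a*, *Rab4b*, *Rab36* and *Rab3b*, and the 5 lower ones were *Rab12*, *Rab6a*, *Rab2a*, *Rab14* and *Rab10*. Without scaling of the groups, 4 members were higher (beside 16.2% of all genes) and 6 were lower (beside 16.7%), and the median log2 ratio of all genes was -0.15, against -0.02 with the scaling. The share of higher genes among all those past 2-fold was 63.1% with the scaling and 49.1% without it.

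**Figure D1:**
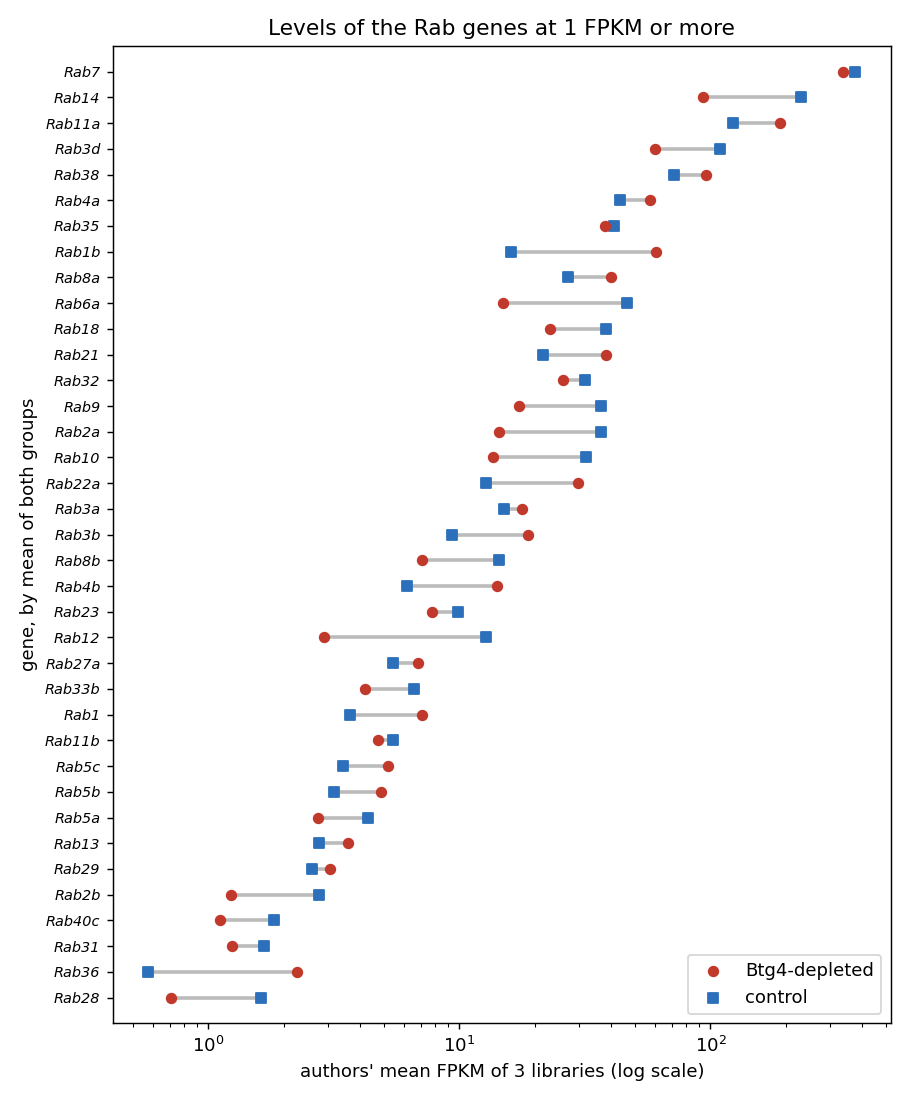
Group mean FPKM (authors' means of 3 libraries, log scale) of the 37 measured Rab genes, with circles for *Btg4*-depleted oocytes and squares for control oocytes joined by a line, ordered by the mean of both groups. *Rab7* leads both groups at 338 FPKM in *Btg4*-depleted and 377 FPKM in control oocytes, and *Rab12* and *Rab1b* have wide gaps in opposite directions (2.88 FPKM in *Btg4*-depleted and 12.7 FPKM in control oocytes for *Rab12*, 60.7 FPKM in *Btg4*-depleted and 16.0 FPKM in control oocytes for *Rab1b*).

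A few genes held most of the family's transcripts. The 5 highest members by the mean of both groups (*Rab7*, *Rab14*, *Rab11a*, *Rab3d* and *Rab38*) held 61.3% of the family's FPKM in *Btg4*-depleted and 64.4% in control oocytes, and the 10 highest held 77.9% in *Btg4*-depleted and 76.8% in control oocytes. *Rab7*, the GTPase of late endosomes and of their fusion with lysosomes, was the highest in both groups, at 338 FPKM in *Btg4*-depleted and 377 FPKM in control oocytes (0.01 in log2 ratio). The order below it differed between the groups. *Rab14*, which acts between the Golgi and early endosomes, was at 93.5 FPKM in *Btg4*-depleted oocytes and at 229 FPKM in control oocytes, which is rank 4 after depletion and rank 2 in control. *Rab11a*, the GTPase of recycling endosomes, was at 189 FPKM in *Btg4*-depleted and 123 FPKM in control oocytes, which is rank 2 after depletion and rank 3 in control. Among the 10 highest members, the largest move up the order was that of *Rab1b*, which ranked 5 in *Btg4*-depleted and 16 in control oocytes, and the largest move down was that of *Rab6a*, which ranked 17 in *Btg4*-depleted and 6 in control oocytes.

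Cytoplasmic polyadenylation elements (CPEs) are short U-rich motifs near the end of a 3′ UTR through which stored oocyte mRNAs are known to have their tails shortened or lengthened, and they are shown because tail length enters these values. The elements TTTTAT and TTTTAAT were searched on the transcribed strand in the last 150 bases of the 3′ UTR of GENCODE M21 transcripts (GRCm38). Each sequence below is 30 bases of a 3′ UTR, 5′ to 3′, with the element in capitals. The first 3 are from the members with an element that were at least 2-fold lower, *Rab36* is the member with an element that was at least 2-fold higher, and *Rab9* and *Rab11a* are members with an element on either side of 0.
Rab12 (chr17:66494632-66494661, minus strand): tcTTTTATtaagctgcactgttttgtttag
Rab6a (chr7:100641207-100641236, plus strand): ttgactcttttgTTTTATtttgacatggca
Rab2a (chr4:8607629-8607658, plus strand): tggTTTTATcctctcgtttttctcccttgg
Rab36 (chr10:75054017-75054046, plus strand): tggcttaaggtcTTTTATtctaaaaagtat
Rab9 (chrX:166457322-166457351, minus strand): atatgtgtatatTTTTATgtaattagcatt
Rab11a (chr9:64715341-64715370, minus strand): tttggacttttTTTTAATctattgatttgg
*Rab6a*, *Rab9* and *Rab11a* hold 2 elements each, of which 1 is shown. The printed element of *Rab6a* starts 50 bases from the end of the transcript, that of *Rab11a* 61, that of *Rab36* 72 and that of *Rab9* 87, while those of *Rab12* (148) and *Rab2a* (147) lie at the far edge of the searched window.

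Of the 32 measured members with a transcript within 10% of the listed length and a long enough 3′ UTR, 9 (28.1%) held an element, beside 27.4% of 7120 genes in all. The 9 members with an element had a median log2 ratio of -0.78, and 7 of them were below 0. The 23 members without one had a median of 0.30, and 13 of them were above 0. All genes lay in the same order, with medians of -0.46 with an element and 0.03 without one. With the trend on transcript length (below) removed, the medians of the members were -0.71 with and -0.03 without an element, and those of all genes were -0.36 and 0.04. *Rab12*, *Rab6a* and *Rab2a* were the 3 members of 9 with an element that were at least 2-fold lower (33.3%, beside 17.8% of all genes with an element and 10.4% of those without one), while *Rab14* and *Rab10* were at least 2-fold lower without one in this window. The other members with an element were *Rab2b*, *Rab5a* and *Rab8b*, all below 0. A match of the letters is no proof of a working element, and these transcripts are those of the annotation, not of these oocytes. A polyadenylation signal (AATAAA or ATTAAA) near the annotated end was found for *Rab12*, *Rab6a* and *Rab14* but not for *Rab2a* or *Rab10*. The searched window of *Rab2a* and *Rab10* is therefore less certain.

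The GTPases of the endoplasmic reticulum (ER) and the Golgi held the widest spread of the 5 routes into which the members were sorted. Of 8 measured members, 2 were at least 2-fold higher and 2 at least 2-fold lower (25% each, beside 19.5% and 11.4% of all genes). The median log2 ratio was -0.48, or -0.39 with the trend on transcript length removed. *Rab1b*, which directs transport from the ER to the Golgi, was at 60.7 FPKM in *Btg4*-depleted and 16.0 FPKM in control oocytes, 4.06-fold higher, and its ratio was above those of 97.3% of measured genes. Its paralogue *Rab1*, with the same role, was at 7.12 FPKM after depletion and 3.66 FPKM in control oocytes (0.94 in log2 ratio). Most Golgi GTPases lay on the other side of 0. *Rab6a*, which acts in traffic out of the Golgi and back to the ER, was at 14.8 FPKM in *Btg4*-depleted and 46.5 FPKM in control oocytes, 2.69-fold lower. *Rab2a*, of the compartment between ER and Golgi, was at 14.4 FPKM in *Btg4*-depleted and 36.7 FPKM in control oocytes, 2.20-fold lower. *Rab18*, found on the ER and on lipid droplets, was at 22.9 FPKM after depletion and 38.2 FPKM in control oocytes (-0.56 in log2 ratio). *Rab36*, linked to the positioning of late endosomes and lysosomes near the Golgi, was 2.20-fold higher, but at 2.26 FPKM in *Btg4*-depleted and 0.577 FPKM in control oocytes it rests on about 46.3 fragments per library in *Btg4*-depleted and 11.8 in control oocytes, and its mean over both groups was the lowest of the members past 2-fold. *Rab33b*, of the Golgi and of autophagosome formation, had a log2 ratio of -0.41. The summed level of the route was 128 FPKM in *Btg4*-depleted and 152 FPKM in control oocytes.

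The GTPases of early and recycling endosomes were the largest group, with 13 measured members, of which 8 had a ratio above 0. Their median log2 ratio was 0.54, or 0.33 with the trend on transcript length removed. Of the 13, 2 were at least 2-fold higher and 2 at least 2-fold lower (15.4% each, beside 19.5% and 11.4% of all genes). *Rab22a*, of early endosomes and recycling tubules, was at 29.7 FPKM in *Btg4*-depleted and 12.8 FPKM in control oocytes, 2.48-fold higher. *Rab4b*, one of the GTPases of fast recycling, was at 14.1 FPKM in *Btg4*-depleted and 6.19 FPKM in control oocytes, 2.33-fold higher. Its paralogue *Rab4a* was more abundant, at 57.3 FPKM after depletion and 43.8 FPKM in control oocytes (0.54 in log2 ratio). *Rab21*, an early endosome GTPase of integrin traffic, stood just inside the 2-fold line at 38.2 FPKM in *Btg4*-depleted and 21.4 FPKM in control oocytes (0.96). *Rab35*, also a GTPase of fast recycling, had nearly equal means, 38.1 FPKM in *Btg4*-depleted and 41.4 FPKM in control oocytes. *Rab12* had the lowest ratio of all members. This GTPase, which directs transferrin receptor from recycling endosomes to lysosomes, was at 2.88 FPKM in *Btg4*-depleted and 12.7 FPKM in control oocytes, 3.21-fold lower, a ratio above those of 0.79% of measured genes only. *Rab14* was 2.17-fold lower at the values given above. *Rab31*, also of early endosomes, had a log2 ratio of -0.16. As a sum, the route had 483 FPKM in *Btg4*-depleted and 510.1 FPKM in control oocytes.

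No member of the late endosome and lysosome route (3 measured), or of the group of other organelles (5 measured), was past 2-fold. Of all genes, 19.5% were higher and 11.4% lower. Beside *Rab7* the late endosomal route held *Rab9*, which acts in transport from late endosomes to the Golgi, at 17.3 FPKM in *Btg4*-depleted and 36.5 FPKM in control oocytes (-0.88), and *Rab29*, a GTPase of lysosomes and the Golgi, at 3.06 FPKM after depletion and 2.58 FPKM in control oocytes (0.30). Among the other organelles, *Rab38* and *Rab32*, paralogues that serve lysosome-related organelles such as melanosomes, were on different sides of 0. *Rab38* was at 96.1 FPKM in *Btg4*-depleted and 71.4 FPKM in control oocytes (0.59), and *Rab32* was at 25.8 FPKM in *Btg4*-depleted and 31.8 FPKM in control oocytes (-0.13). The ciliary GTPases *Rab23* and *Rab28* had log2 ratios of -0.16 and -0.53, and *Rab40c*, an adaptor of a ubiquitin ligase, had -0.32.

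The secretory GTPases had 8 measured members, with 1 at least 2-fold higher and 1 at least 2-fold lower (12.5% each, beside 19.5% and 11.4% of all genes). Their median log2 ratio was 0.40, or -0.03 with the trend on transcript length removed. *Rab3d*, the most abundant of them and a GTPase of regulated exocytosis, was at 60.3 FPKM in *Btg4*-depleted and 109 FPKM in control oocytes (-0.68). *Rab3b*, of the same subfamily, was at 18.7 FPKM after depletion and 9.34 FPKM in control oocytes, 2.12-fold higher. *Rab10*, which acts in polarised exocytosis, was at 13.6 FPKM in *Btg4*-depleted and 31.9 FPKM in control oocytes, 2.02-fold lower and so close to the line. The GTPases with a known part in cortical granule traffic lay nearer to 0. *Rab3a* was at 17.8 FPKM in *Btg4*-depleted and 15.0 FPKM in control oocytes (0.38), and *Rab27a* was at 6.83 FPKM after depletion and 5.44 FPKM in control oocytes (0.42). *Rab8a* and *Rab8b*, which carry cargo from the Golgi or recycling endosomes to the surface, had log2 ratios of 0.71 and -0.78, and *Rab13*, of delivery to the surface and cell junctions, had 0.41.

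**Figure D2:**
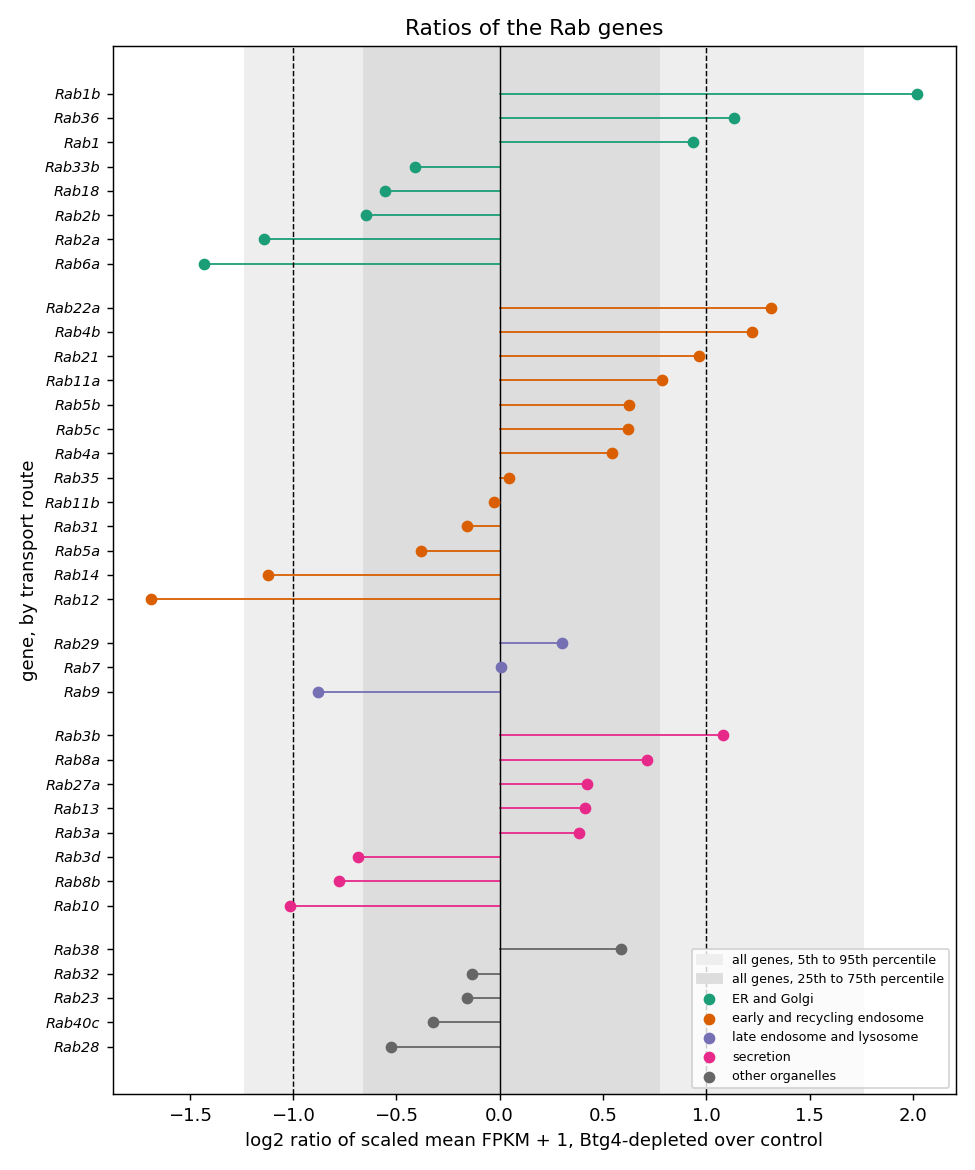
Log2 ratio of scaled mean FPKM + 1, *Btg4*-depleted over control, of the 37 measured Rab genes by transport route, with dashed lines at 2-fold and grey bands for the quartiles (-0.66 to 0.77) and the 5th to 95th percentiles (-1.23 to 1.76) of all measured genes. *Rab1b* lies above and *Rab12* and *Rab6a* lie below the wider band, and the late endosomal and other groups stay within 2-fold.

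Members of the same number differed from each other to varying degrees. These paralogues share most of their protein sequence and much of their function, and 11 pairs had both members measured. The difference within a pair was at least 1 in log2 ratio in 6 of the 11 pairs, and in 3 of the 11 once the trend on transcript length (below) was removed. The pairs overlap, since Rab3 and Rab5 genes enter several pairs each. *Rab5a* stood at the line, 1.01 below *Rab5b* and 1.00 below *Rab5c*. How often unrelated measured genes differ by as much was not computed. *Rab3b* and *Rab3d* were farthest apart, at 1.08 and -0.68, followed by *Rab8a* and *Rab8b* at 0.71 and -0.78. *Rab8a* was at 40.2 FPKM in *Btg4*-depleted and 27.1 FPKM in control oocytes, and *Rab8b* was at 7.09 FPKM in *Btg4*-depleted and 14.4 FPKM in control oocytes. *Rab5a*, *Rab5b* and *Rab5c*, which act in the fusion of early endosomes, divided in the same way. *Rab5b* was at 4.87 FPKM in *Btg4*-depleted and 3.16 FPKM in control oocytes (0.63), *Rab5c* was at 5.20 FPKM after depletion and 3.42 FPKM in control oocytes (0.62), and *Rab5a* was at 2.73 FPKM in *Btg4*-depleted and 4.31 FPKM in control oocytes (-0.38). *Rab1b* and *Rab1* were both above 0 but differed by 1.08, and *Rab3a* and *Rab3d* differed by 1.07. *Rab11b*, the less abundant form of Rab11, was at 4.75 FPKM after depletion and 5.44 FPKM in control oocytes (-0.03) and so 0.81 below *Rab11a*. *Rab2b*, at 1.23 FPKM in *Btg4*-depleted and 2.76 FPKM in control oocytes (-0.65), was on the same side as *Rab2a*.

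**Figure D3:**
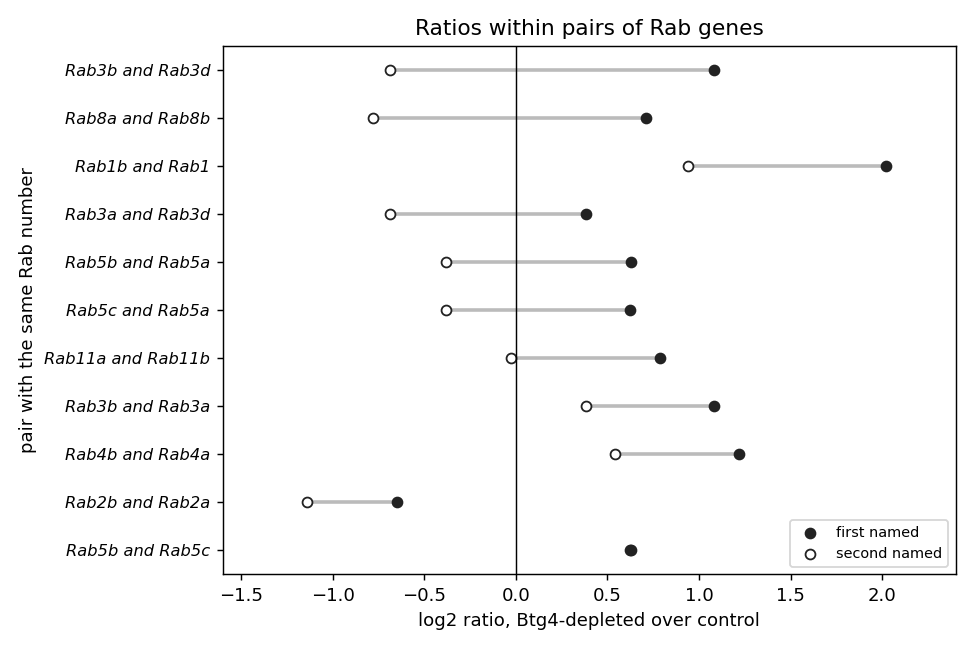
Log2 ratio (*Btg4*-depleted over control) of both members of the 11 measured pairs with the same Rab number, the gene named first as a filled circle and the gene named second as an open circle, ordered by their difference. The circles of *Rab3b* and *Rab3d* are 1.77 apart, and those of *Rab5b* and *Rab5c* coincide at 0.63 and 0.62.

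Reads of close paralogues could be shared between genes, so the sequences of each pair were compared. Protein identity, from translated GENCODE M21 transcripts, was 76.7% to 92.5%, but no pair shared a run of 100 bases, the length of a read, and the longest shared run was 14 to 38 bases. Pseudogenes and other members were not compared. The stretch of 8 codons for the phosphate-binding loop (P-loop), which holds the phosphates of GTP, is shown for *Rab1b* and *Rab1*, the most similar pair, and for 2 other pairs, since it is among the most conserved parts of these proteins. Capitals mark bases that differ within the pair (GRCm38, coding strand, 5′ to 3′).
Rab1b (chr19:5105199-5105222, minus strand): ggTgaCtcCggCgtGggCaagtcG
Rab1 (chr11:20215658-20215681, plus strand): ggCgaTtcTggGgtTggAaagtcC
Rab4b (chr7:27176189-27176212, minus strand): ggCaGtgcTggaactggcaaatcA
Rab4a (chr8:123823840-123823863, plus strand): ggAaAtgcGggaactggcaaatcT
Rab8a (chr8:72161401-72161424, plus strand): ggGgactcGggGgtAggGaagacc
Rab8b (chr9:66919568-66919591, minus strand): ggCgactcCggCgtTggCaagacc
Of the 24 bases, 7 differed between *Rab1b* and *Rab1*, the pair with 92.5% protein identity, 4 between *Rab4b* and *Rab4a* and 5 between *Rab8a* and *Rab8b*.

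The ratios moved with transcript length, among the Rab genes as among all genes. Spearman's rank correlation of the log2 ratio with the listed transcript length was -0.37 over the 37 members and -0.33 over all 10012 genes, given as a description across genes of the same libraries, which are not independent replicates. The 12 members under 2000 bases had a median log2 ratio of 0.56, and 10 of them were above 0. The 12 members of 2000 to 3000 bases had a median of -0.06, and the 13 longer ones had a median of -0.41, with 3 above 0. The medians of all genes in these classes were 0.49, 0.04 and -0.37. With the level there was no such trend (rank correlation of -0.01 over the members and over all genes).

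**Figure D4:**
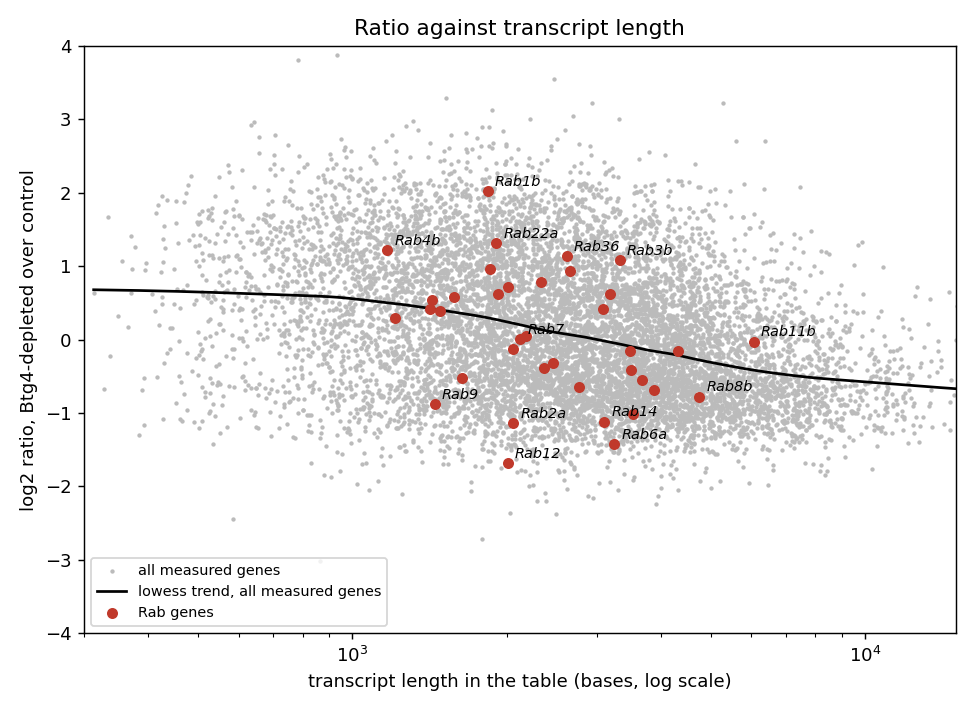
Log2 ratio (*Btg4*-depleted over control) against listed transcript length in bases (log scale), with the Rab genes in red over all measured genes in grey and the lowess trend of all genes as a line (points beyond the axes are not shown). The trend falls with length, *Rab1b*, *Rab22a* and *Rab36* lie above it, and *Rab12*, *Rab2a* and *Rab9* lie below it.

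After the trend of all genes was removed, 4 members were at least 2-fold higher (beside 14.8% of all genes) and 5 were at least 2-fold lower (beside 12.2%). *Rab1b* then had a log2 ratio of 1.71 and *Rab12* of -1.94. *Rab4b*, the shortest measured member at 1170 bases, came to 0.70, and *Rab10*, at 3531 bases, to -0.93, so that both were inside 2-fold. *Rab9*, at 1448 bases, came to -1.31 and passed it. Within pairs, the difference of *Rab8a* and *Rab8b* came to 0.97, that of *Rab3a* and *Rab3d* to 0.51 and that of *Rab11a* and *Rab11b* to 0.26. By listed length, *Rab8b* (4751 bases) and *Rab3d* (3868 bases) are the longer transcripts of their pairs. For *Rab8a*, listed at 2012 bases, the closest GENCODE M21 coding transcript had 4550 bases, near that of *Rab8b* (4733). The 0.97 of this pair, and with it the count of pairs at least 1 apart, therefore rests on an uncertain length. The part of transcript length in these ratios was not tested.

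Among the genes that act on Rab proteins, those for prenylation, REP and GDI had the highest median. Of 7 measured genes in this list, 2 were at least 2-fold higher and none was 2-fold lower (28.6% and 0%, beside 19.5% and 11.4% of all genes). The median log2 ratio was 0.70, beside -0.02 for all genes. With the length trend removed, 2 were higher and none lower (beside 14.8% and 12.2%), with a median of 0.60, against -0.06 for all genes. *Gdi2*, the more abundant of the 2 GDP dissociation inhibitors, was at 159.9 FPKM in *Btg4*-depleted and 45.4 FPKM in control oocytes, 3.88-fold higher. *Rabggta*, the alpha subunit of the Rab geranylgeranyl transferase, was at 11.5 FPKM after depletion and 4.33 FPKM in control oocytes, 2.59-fold higher. The beta subunit, *Rabggtb*, was at 6.04 FPKM in *Btg4*-depleted and 8.55 FPKM in control oocytes (-0.30 in log2 ratio).

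Of 32 measured GEF genes, 9 were at least 2-fold higher and 6 at least 2-fold lower (28.1% and 18.8%, beside 19.5% and 11.4% of all genes), with a median of 0.18. With the length trend removed, 10 were higher and 4 lower (beside 14.8% and 12.2%), and *Trappc4*, *Sbf2*, *Mon1b*, *Ric1* and *Gapvd1* were inside 2-fold. *Madd* (1.14), *Dennd6a* (1.33), *Trappc2* (-1.42) and *Trappc6a* (-1.28) then passed it. *Trappc6b*, a subunit of the TRAPP complexes that activate *Rab1* and Rab11, was at 34.2 FPKM in *Btg4*-depleted and 4.20 FPKM in control oocytes, 7.49-fold higher. The other subunits in the GEF list lay on both sides of 0. *Trappc4* was at 23.6 FPKM in *Btg4*-depleted and 12.6 FPKM in control oocytes (2.02-fold higher). *Trappc3*, a core subunit, was at 23.7 FPKM after depletion and 70.3 FPKM in control oocytes, 2.58-fold lower. Of the 8 measured TRAPP subunits in this list 5 were above 0 and 3 below, and subunits outside the list were not looked at. With the length trend removed, 3 of the subunits above 0 came close to it, *Trappc5* at -0.03, *Trappc1* at 0.10 and *Trappc2l* at 0.09. *Ankrd27*, a GEF of *Rab21*, was at 46.4 FPKM in *Btg4*-depleted and 13.4 FPKM in control oocytes, 3.68-fold higher, beside the 0.96 of *Rab21* itself. *Rab3il1*, a GEF of the Rab8 branch, was at 71.7 FPKM in *Btg4*-depleted and 23.1 FPKM in control oocytes, 3.37-fold higher. The GEF of *Rab7* is a complex of a Mon1 protein with *Ccz1*, and its genes were split. *Mon1a* was at 13.1 FPKM in *Btg4*-depleted and 4.14 FPKM in control oocytes (1.60), whereas its paralogue *Mon1b* was at 4.80 FPKM after depletion and 12.2 FPKM in control oocytes (-1.04) and *Ccz1* was at 8.64 FPKM in *Btg4*-depleted and 20.5 FPKM in control oocytes (2.01-fold lower). *Sbf2*, a GEF of the DENN family, was at 2.71 FPKM after depletion and 8.84 FPKM in control oocytes (-1.27).

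Of 28 measured GAP genes, 5 were at least 2-fold higher and 1 was at least 2-fold lower (17.9% and 3.57%, beside 19.5% and 11.4% of all genes), with a median of 0.15. With the length trend removed, 5 were higher and none lower (beside 14.8% and 12.2%), with a median of 0.27, against -0.06 for all genes. *Tbc1d10a*, a GAP of *Rab35* and *Rab27a*, was at 14.1 FPKM in *Btg4*-depleted and 3.80 FPKM in control oocytes, 3.48-fold higher. *Tbc1d20*, the GAP of *Rab1* and *Rab18* proteins, was at 8.85 FPKM in *Btg4*-depleted and 2.24 FPKM in control oocytes, 3.33-fold higher, and *Sgsm3* was at 51.8 FPKM after depletion and 21.02 FPKM in control oocytes, 2.68-fold higher. *Evi5*, linked to Rab11, was the lower one, at 14.5 FPKM in *Btg4*-depleted and 39.4 FPKM in control oocytes (-1.22 in log2 ratio, and -0.84 with the length trend removed).

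Of 32 measured effectors, 2 were at least 2-fold higher and 6 at least 2-fold lower (6.25% and 18.8%, beside 19.5% and 11.4% of all genes), with a median log2 ratio of -0.26. With the length trend removed, 2 were higher and 3 lower (beside 14.8% and 12.2% of all genes), the median was -0.10, and *Rph3a*, *Ocrl* and *Ehbp1* were inside 2-fold. Effectors of Rab3 and Rab27 proteins lay on both sides of 0. *Sytl4*, a granule effector of Rab27, was at 22.9 FPKM in *Btg4*-depleted and 63.2 FPKM in control oocytes, 2.41-fold lower, and *Rph3a*, an effector of Rab3 and Rab27, was at 17.5 FPKM in *Btg4*-depleted and 42.9 FPKM in control oocytes, 2.13-fold lower. *Rph3al*, related to *Rph3a*, was more abundant than these and lay the other way, at 120.5 FPKM in *Btg4*-depleted and 73.3 FPKM in control oocytes (0.87 in log2 ratio). *Sytl2* and *Rims2* had log2 ratios of -0.05 and 0.19. *Rims1*, a Rab3 effector of exocytic sites, was at 2.75 FPKM after depletion and 9.31 FPKM in control oocytes, 2.51-fold lower. The phosphoinositide phosphatases *Ocrl* and *Inpp5b*, paralogues that bind several Rab proteins, lay on opposite sides. *Ocrl* was at 3.35 FPKM in *Btg4*-depleted and 10.3 FPKM in control oocytes (-1.24), and *Inpp5b* was at 10.4 FPKM in *Btg4*-depleted and 3.28 FPKM in control oocytes (1.55). *Optn*, an effector of Rab8, was at 15.6 FPKM after depletion and 5.82 FPKM in control oocytes (1.43), and *Ehbp1*, an effector of Rab8 and *Rab10*, was at 2.67 FPKM in *Btg4*-depleted and 8.17 FPKM in control oocytes (-1.19).

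**Figure D5:**
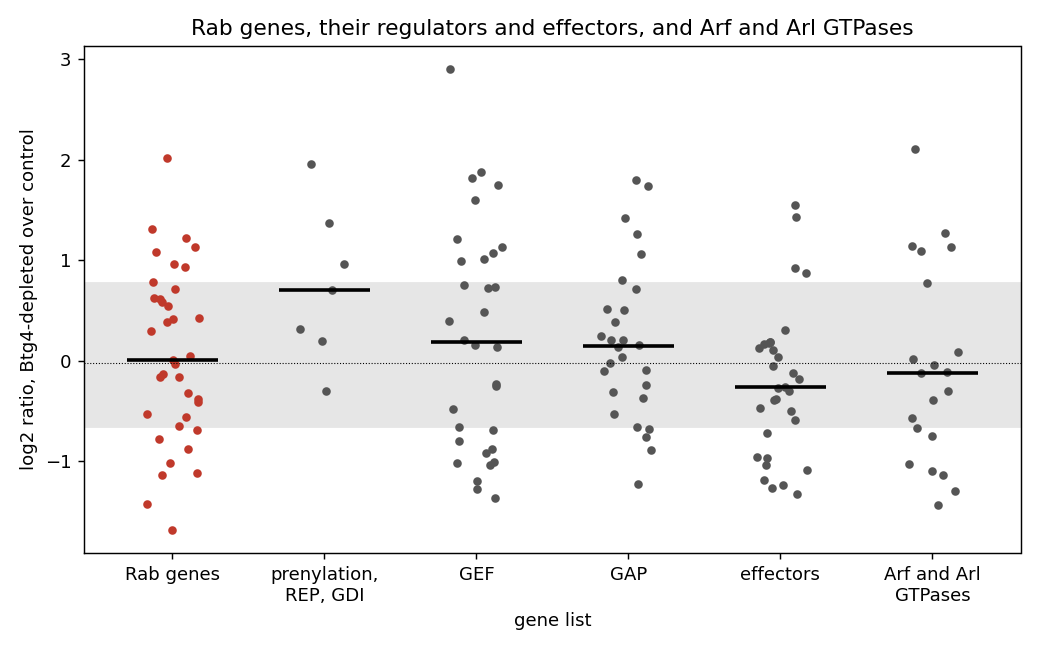
Log2 ratio (*Btg4*-depleted over control) of each measured gene of the Rab family, of 4 lists of Rab regulators and effectors, and of the Arf and Arl family, with a bar at each median and a grey band for the quartiles of all measured genes (-0.66 to 0.77). The medians run from 0.70 (prenylation, REP and GDI, 7 genes) to -0.26 (effectors, 32 genes), and every list has genes on both sides of 0.

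The Arf and Arl GTPases, another family of membrane traffic, were set beside the Rab genes, whose median lay nearer to that of all genes. Of 21 measured Arf and Arl genes (with *Sar1a* and *Sar1b*, the GTPases of ER exit), 5 were at least 2-fold higher and 5 at least 2-fold lower (beside 19.5% and 11.4% of all genes), with a median of -0.12. With the length trend removed, 3 were higher and 8 lower (beside 14.8% and 12.2%), with a median of -0.40, against -0.08 for the Rab genes and -0.06 for all genes. *Sar1b* was at 68.9 FPKM in *Btg4*-depleted and 17.1 FPKM in control oocytes, 4.32-fold higher, and *Arf4*, a Golgi GTPase, was at 2.80 FPKM after depletion and 10.3 FPKM in control oocytes, 2.71-fold lower. The difference between the families was not tested.

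The 17 members under 1 FPKM include forms known from other tissues, such as *Rab25* and *Rab17* of epithelia, *Rab6b* and *Rab39b* of neurons and *Rab44* of immune cells. Of these 17, 9 were listed at 0.01 FPKM, the lowest value in the table, in *Btg4*-depleted oocytes (beside 28.9% of the 5695 genes under 1 FPKM) and 1 in control oocytes (beside 12.0%). The 9 were *Rab20*, *Rab30*, *Rab34*, *Rab9b*, *Rab39b*, *Rab7b*, *Rab6b*, *Rab33a* and *Rab15*, which in control oocytes were at 0.020 to 0.877 FPKM. The highest 2 of these in control oocytes were *Rab20*, of endosomes and phagosomes, at 0.877 FPKM, and the Golgi GTPase *Rab30*, at 0.680 FPKM, which is about 4.95 and 10.7 fragments per library. *Rab37*, of secretory granules, was at 0.10 FPKM in *Btg4*-depleted oocytes and was the member listed at 0.01 FPKM in control oocytes. *Rab25*, an epithelial form of Rab11, was at 0.630 FPKM in *Btg4*-depleted and 0.967 FPKM in control oocytes, and *Rab24*, linked to autophagy, was at 0.183 FPKM in *Btg4*-depleted and 0.647 FPKM in control oocytes. *Rab17*, *Rab40b*, *Rab3c*, *Rab44* and *Rab43* were at 0.020 to 0.237 FPKM in *Btg4*-depleted and 0.0267 to 0.163 FPKM in control oocytes. A value of 0.01 may stand for no fragment or for a value below a limit, and no fold was taken against it. No difference of these genes was tested.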

How the data were processed

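RNA of 6 samples, 3 of *Btg4*-depleted and 3 of control oocytes, was assigned to groups by the sample labels. The authors deposited, for each of 15707 genes, 2 group means of FPKM and a transcript length, from paired-end sequencing of cDNA primed on poly(A) tails and amplified by PCR. BWA and the build mm9 are named in the submitters' processing notes. For the counting of fragments, the program and annotation were not given in the sources used here. The authors' log2 ratios, probabilities and test statistics, which stand in the same table and in lists of called genes, were not used. The authors' mean normalized counts over all libraries (signal) in one kind of list were used only to estimate depth, over 320 genes (5th to 95th percentile 6.92 to 8.12 M fragments). Each group mean was a multiple of 1/300 (tolerance 0.001 of that step), the pattern left by averaging 3 values that have 2 decimals.

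The deposited FPKM were scaled by TMM (30% of ratios and 5% of levels trimmed, log2 offset 0.16 added to the ratio of *Btg4*-depleted over control), and log2 ratios were taken with a pseudocount of 1 at a mean of at least 1 FPKM. The pseudocount understates the ratios of low genes. The planned tests, exclusion of single replicates and replicate block needed single libraries and were not run. Alternatives were other scalings, pseudocounts of 0.1 and 0.5, no minimum or a minimum of 5 FPKM, a 1.5-fold limit and removal of a lowess trend on length (span 30%). Members, lists and routes were chosen with earlier results of these data known. Named are the 10 highest members, members past 2-fold, members of pairs and up to 6 genes of each list past 2-fold at a mean of at least 5 FPKM. *Rabggtb*, *Trappc1*, *Trappc2*, *Trappc2l*, *Trappc4*, *Trappc5*, *Trappc6a*, *Madd*, *Dennd6a*, *Mon1b*, *Ccz1*, *Ric1*, *Gapvd1*, *Rph3a*, *Rph3al*, *Sytl2*, *Rims2*, *Sar1b*, *Arf4* and the remaining members were named after their values were seen. Transcripts were GENCODE M21 coding transcripts (GRCm38, not the authors' build) closest to the listed length, matched by Entrez identifier, within 10% for 45 of 54 members. Some genes of other families are not reported here. The computations were tested on simulated data. Software was Biopython 1.88, matplotlib 3.10.9, statsmodels 0.14.6, scipy 1.17.1, pandas 2.3.3 and numpy 2.4.6 under Python 3.11.15.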

Additional observations from a re-analysis of the deposited data

How the results depend on the processing

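No paired analysis was possible because the deposited table holds group means only, and for the same reason no replicate could be left out. The median log2 ratio of the Rab genes was -0.16 without scaling, and *Btg4* was at -5.46 without scaling and -5.76 with the length trend removed. Past a 1.5-fold limit, 12 members were higher and 9 lower, and the share of all genes past that limit was not computed. Over the 8 other settings of scaling, pseudocount, minimum and length, 4 to 6 members were at least 2-fold higher and 4 to 6 at least 2-fold lower. In the same settings 1426 to 2324 of all genes were higher and 777 to 1677 lower, with fewer or more genes counted where the minimum differed. Of the 10 members past 2-fold, 7 stayed past it in every setting that gave a value, and the exceptions were *Rab10* (-1.17 to -0.93), *Rab3b* (0.93 to 1.16) and *Rab4b* (0.70 to 1.34). *Rab36*, with few fragments, ran from 1.04 to 1.95. Of the 37 measured members 30 kept 1 sign, and *Rab7*, *Rab35*, *Rab3a*, *Rab23*, *Rab11b*, *Rab13* and *Rab29* (main ratios of -0.16 to 0.41) did not. The 11 differences within pairs kept their sign in every setting that gave a value, but with the length trend removed 3 in place of 6 were at least 1. That count rests on the listed lengths, of which that of *Rab8a* is uncertain. The cause of these shifts was not tested. *Rab28*, the lowest measured member, rests on about 9.09 fragments per library in *Btg4*-depleted and 20.7 in control oocytes, and group means carry no error between samples.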
